A study of Mus musculus with 2 samples.

Results

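The genes described here encode the classical high mobility group (HMG) proteins, small and abundant chromatin proteins that lack enzymatic activity, in single cells of mouse *MLL-AF9* acute myeloid leukemia. The members were 6 of the 27998 genes of the count table, taken by symbol: *Hmgn1*, *Hmgn2* and *Hmgn3* of the nucleosome-binding class, *Hmgb1* and *Hmgb2* of the HMG-box class, and *Hmga1* of the AT-hook class. The family was chosen by the ratio of counts between the libraries, *Hmgn1* being among the largest differences there, so the ratios between libraries below are a description only.

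HMGN proteins bind the nucleosome core particle between the DNA and the histones, compete with linker histone H1 for nucleosomes and keep chromatin accessible. HMGB proteins bend DNA through HMG boxes and help transcription factors and recombinases to assemble on it, and HMGB1 is in addition released from dying cells as an alarm signal. HMGA proteins hold AT-rich DNA through short AT-hook motifs, and *Hmga1* is known for high expression in stem and progenitor cells and in many leukemias.

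Both donor genotypes carried Kat2a Flox/Flox alleles, and both were treated with pIpC, which induces the interferon-responsive Mx1 promoter that drives Cre. The leukemias called WT came from Mx1-Cre -/- donors and those called KO from Mx1-Cre+/- donors. Marrow progenitors were taken 4 to 6 weeks after treatment, transduced with a retrovirus encoding the MLL-AF9 fusion and a YFP reporter, and grown in irradiated mice. Terminal leukemias were pooled by genotype, 5 for WT and 4 for KO, and live YFP-positive cells were captured in 1 10x Genomics 3′ library per genotype. No difference between the libraries therefore has a replicate check, and the leukemias within a pool could not be told apart.

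After cells with fewer than 500 detected genes were left out, 3866 cells of the WT-labelled library (11669427 UMIs, the unique molecular identifiers that each stand for 1 captured transcript) and 3545 cells of the KO-labelled library (7920256 UMIs) remained. Median depth was 2588.5 and 1884 UMIs per cell, and 28 cell barcodes occurred in both libraries. *Kat2a* itself went against the labels, with 12.2 CPM (counts per 1e+06 UMIs) in the WT-labelled library and 95.8 CPM in the KO-labelled library. The excised allele is known to be transcribed still, with its last exons, so that a 3′ tag does not check the deletion. For this reason the libraries are called by their labels only. The pools also differed in sex-linked transcripts, with *Xist*, which is transcribed from the inactive X chromosome of females, at 275 and 97.2 CPM, and the Y-linked *Eif2s3y* at 12.0 and 90.02 CPM. Markers of other lineages were present in both libraries. The summed level of 6 erythroid genes was 197 and 380 CPM, that of 5 T or NK cell genes was 197 and 318 CPM, nearly all of it *Nkg7*, that of 4 mast cell or basophil genes was 94.7 and 197 CPM, and that of 5 B cell genes was 55.02 and 80.0 CPM, nearly all of it *Cd79b*, in WT and KO order. The defining markers of lymphoid cells were at or near 0, with 3 and 2 UMIs of *Cd3e* and 8 and 10 UMIs of *Cd79a*, whereas the globin gene *Hbb-bs* had 972 and 1699 UMIs. The erythroid genes did not all run the same way. *Car2* had 828 and 263 UMIs, whereas the others in that list had more UMIs in the KO-labelled library, such as *Car1* with 0 and 93. Eosinophil genes (3) summed to 73.0 and 61.4 CPM, with 724 and 261 UMIs of *Prg2* but 125 and 219 UMIs of *Prg3*. The part of these markers in the values below was not tested.

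The stretch before the start site is shown for *Hmgb2*, the member that followed cell division most closely below, and for *Hmgn1*, the member with the largest difference between libraries. Both were read from the RefSeq promoter table (GRCm38.p6), 5′ to 3′ on the strand of the gene, from 250 to 6 bases before the start. Capitals mark CCAAT (or ATTGG on the other strand), the core of the CCAAT box, and TTTGAA (or TTCAAA), the core of the cell cycle genes homology region known as CHR. The 2 motifs share no letters in these stretches. *Hmgb2* lies at chr8:57511593-57511837 on the plus strand and *Hmgn1* at chr16:96127731-96127975 on the minus strand.
Hmgb2: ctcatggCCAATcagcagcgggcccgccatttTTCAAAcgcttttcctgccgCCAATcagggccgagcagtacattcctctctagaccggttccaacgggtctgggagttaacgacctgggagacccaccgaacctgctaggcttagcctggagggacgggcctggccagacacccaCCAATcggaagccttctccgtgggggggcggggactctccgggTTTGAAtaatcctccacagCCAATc
Hmgn1: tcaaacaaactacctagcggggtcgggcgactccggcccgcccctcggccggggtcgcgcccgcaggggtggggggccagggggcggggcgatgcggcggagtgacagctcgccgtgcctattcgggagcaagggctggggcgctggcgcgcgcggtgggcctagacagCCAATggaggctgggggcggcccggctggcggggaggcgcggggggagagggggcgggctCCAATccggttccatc

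*Hmgb2* held 4 CCAAT and 2 CHR matches, and *Hmgn1* held 2 CCAAT and 0 CHR matches. In the whole promoter windows of 300 bases, 1 of 2 RefSeq starts of *Hmgb1* held 3 CCAAT matches, 86, 42 and 11 bases before the start, and *Hmgn2* held 1. The 2 windows of *Hmga1* held 0 of either motif, and of the 5 members with a window only *Hmgb2* held a CHR match. Of 32851 mouse promoter windows of this length, 37.4% held at least 1 CCAAT, 11.7% at least 2 and 3.37% at least 3, whereas 17.9% held a CHR core and 2.09% held 2 or more CCAAT together with a CHR core. A match describes letters only and is not evidence of binding. *Hmgn3* had no entry in the table.

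In GENCODE M21 (GRCm38), *Hmgn1* spans chr16:96120618-96127729 on the minus strand, *Hmgn2* chr4:133964738-133968650 (minus), *Hmgn3* chr9:83109948-83146685 (minus), *Hmgb1* chr5:149046702-149184489 (minus), *Hmgb2* chr8:57511907-57515999 (plus) and *Hmga1* chr17:27556497-27563674 (plus). The 3′ assay reads mainly the last exon, which holds the 3′ end of the transcript, and which measured 1800 bases in *Hmgn1*, 836 in *Hmgn2*, 482 in *Hmgn3*, 2212 in *Hmgb1*, 2034 in *Hmgb2* and 1232 in *Hmga1*.

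*Hmgn1* was measured at 87.9 CPM (95% exact Poisson interval 82.6 to 93.5, from 1026 UMIs) in the WT-labelled library and at 206 CPM (196 to 216, from 1630 UMIs) in the KO-labelled library. The 2 intervals lie far apart, and the log2 ratio of KO to WT was 1.23 (1.11 to 1.34), or 2.34-fold. These intervals, like all others here, cover counting error only and say nothing of variation between leukemias. Those of levels and ratios also leave out variation between cells beyond counting error. *Hmgn2*, the most strongly counted member, had 38427 UMIs and 3293 CPM (3260 to 3326) in the WT-labelled library and 44538 UMIs and 5623 CPM (5571 to 5676) in the KO-labelled library. Its log2 ratio was 0.77 (0.75 to 0.79), or 1.71-fold, so that both abundant HMGN genes stood higher in the same library. *Hmgn3*, which is known for expression in brain and endocrine tissue, had only 100 and 113 UMIs, at 8.57 CPM (6.97 to 10.4) and 14.3 CPM (11.8 to 17.2). Its log2 ratio of 0.74 had a correspondingly wide interval of 0.33 to 1.14.

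The HMG-box genes differed less. *Hmgb1* was at 2016 CPM (1990 to 2042, 23525 UMIs) in the WT-labelled library and at 2448 CPM (2414 to 2483, 19388 UMIs) in the KO-labelled library, a log2 ratio of 0.28 (0.25 to 0.31). *Hmgb2* was at 2788 CPM (2758 to 2819, 32536 UMIs) and 3302 CPM (3262 to 3342, 26150 UMIs), a log2 ratio of 0.24 (0.22 to 0.27). *Hmga1* was level, at 72.5 CPM (67.7 to 77.6, 846 UMIs) and 73.1 CPM (67.3 to 79.3, 579 UMIs), with a log2 ratio of 0.01 (-0.14 to 0.17). This interval leaves out a difference of 1.5-fold in either direction.

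Depth per cell differed between the libraries, so each cell was also thinned to 1000 UMIs, which left out 66 kept cells of the WT-labelled library and 194 of the KO-labelled library. In the thinned cells, a UMI of *Hmgn1* was seen in 6.32% of WT cells (exact binomial interval 5.56 to 7.14%) and in 13.7% of KO cells (12.5 to 14.9%). Without thinning these shares were 16.3% and 24.99%. *Hmgn2* was seen in 79.9% and 90.2% of thinned cells, *Hmgb1* in 66.1% and 77.3%, *Hmgb2* in 74.9% and 78.9%, *Hmga1* in 5.84% and 5.34%, and *Hmgn3* in 0.632% and 0.955%. Before thinning, the shares were 88.4% and 92.3% for *Hmgn2*, 81.2% and 85.9% for *Hmgb1*, 89.2% and 85.3% for *Hmgb2*, 17.0% and 13.004% for *Hmga1*, and 1.76% and 2.23% for *Hmgn3*. The order of the libraries for *Hmgb2* thus turned with the depth of the cells. Hematopoietic cells in general make HMG proteins, and no cell type here could serve as a blank for free RNA.

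**Figure D1:**
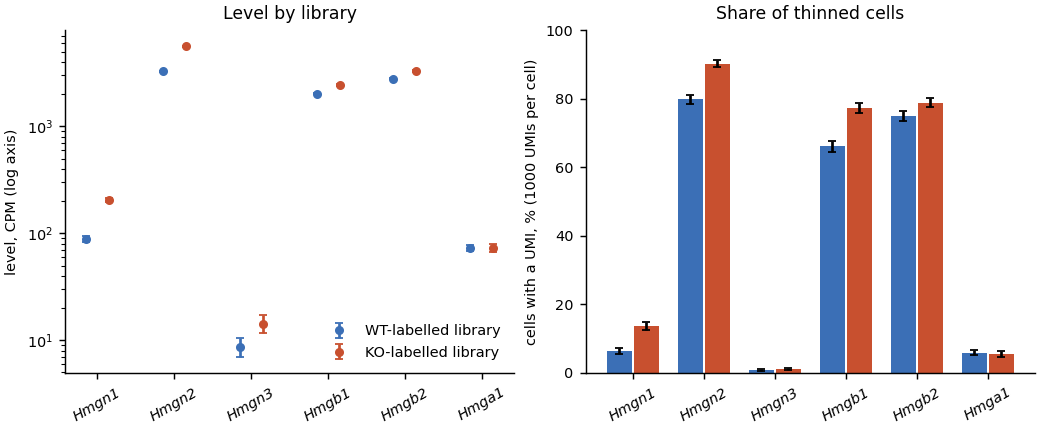
Left, level of each HMG gene in CPM on a log axis, with 95% exact Poisson intervals. Right, percentage of cells thinned to 1000 UMIs that held a UMI of the gene, with 95% exact binomial intervals. Blue is the WT-labelled library and red the KO-labelled library. *Hmgn1* and *Hmgn2* stand apart most clearly, and *Hmga1*, at 72.5 and 73.1 CPM, coincides.

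These ratios were read against the robust genes, those detected in 10% or more of the kept cells, which numbered 2737 and included all members except *Hmgn3*. The median log2 ratio of the robust genes was 0.07, and the middle 90% lay between -0.51 and 0.52. Among the 5 members in the set, 2 were higher in the KO-labelled library by 1.5-fold or more and 0 were lower by that much, where 3.54% of robust genes were that much higher and 3.43% that much lower. With the robust median set to 0, this split of 97 higher and 94 lower genes became 61 and 135. Since this contrast helped to choose the family, nothing is read from that count. Ordered from the highest ratio down, *Hmgn1* ranked 3, *Hmgn2* 31, *Hmgb1* 606, *Hmgb2* 721 and *Hmga1* 1607.

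**Figure D2:**
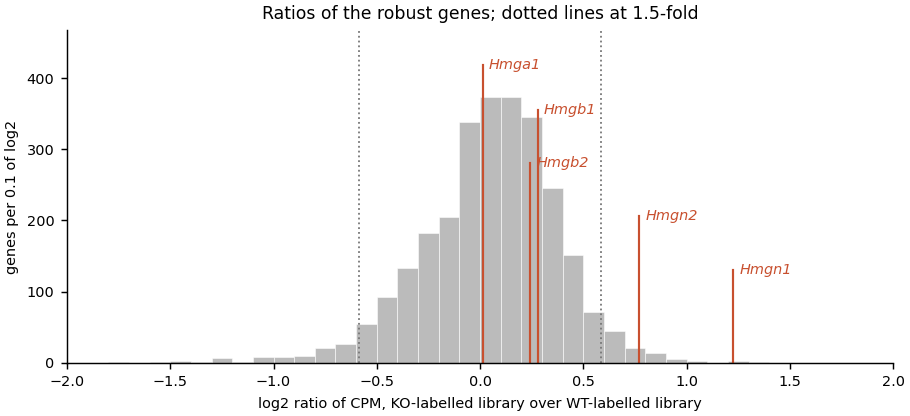
Number of robust genes per 0.1 of log2 ratio of CPM, KO-labelled library over WT-labelled library (grey bars, 2737 genes), with the ratio of each robust HMG gene as a red line whose height carries no value. Dotted lines mark 1.5-fold. *Hmgn1* at 1.23 and *Hmgn2* at 0.77 lie beyond the upper line, and the other 3 lie within the bulk.

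To see in which cells the genes were used, cells of both libraries were clustered without the HMG members into 12 clusters, numbered by size. Clusters 8 and 9 were led by mitotic genes such as *Ube2c*, *Ccnb1* and *Aurkb*, and cluster 10 by S-phase genes such as *Rrm2* and *Tyms*. Cluster 6 was led by the primary granule genes *Mpo* and *Elane*, clusters 4, 11 and 12 were granulocyte-like (*Ltf* and *Mmp9* in cluster 4, stefin genes in clusters 11 and 12), and clusters 3 and 7 were monocyte- or macrophage-like (*Apoe* and *Ccl6*, *Irf8* and *Ms4a6c*). Clusters 4 and 11 had 13 of 13 granulocyte markers raised. Cluster 12 had only 4, *S100a8*, *S100a9*, *Camp* and *Ngp*, together with 9 of 35 S-phase genes. Clusters 1, 2 and 5 were not named. Cluster 5 was led by *Srm*, *Dkc1* and *C1qbp*, genes of polyamine synthesis, ribosome assembly and mitochondria. It was the deepest, with medians of 4858.5 and 3912 UMIs per cell. S-phase genes were raised there too, 28 of 35 as in cluster 10, though 0 were among its 10 leading genes. Their sum was 4751 and 5395 CPM, against 7671 and 7043 CPM in cluster 10 and 2787 and 3422 CPM over all cells. Clusters 2 and 10 were mainly from the KO-labelled library, with 175 and 579 cells in cluster 2, led by *Ly6e*, and 86 and 420 cells in cluster 10, so that cluster and library are hard to tell apart there.

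*Hmgn1* was highest in cluster 5, at 201 CPM in the WT-labelled library and 398 CPM in the KO-labelled library. It was lowest in cluster 4 of the WT-labelled library, at 8.43 CPM from 8 UMIs in 481 cells, and in cluster 3 of the KO-labelled library, at 52.0 CPM. Its level thus spanned 23.9-fold over the clusters of the WT-labelled library and 7.65-fold over those of the KO-labelled library. The former depended on the number of clusters, with a log2 span of 3.48 with 8 clusters, 4.58 with 12 and 5.64 with 16. The narrower span came from the low end, since cluster 4 stood at 78.9 CPM (27 UMIs in 213 cells) in the KO-labelled library. Cells with 5 or more *Hmgn1* UMIs numbered 17 in the WT-labelled library, 13 of them in cluster 5, and 46 in the KO-labelled library, 32 of them in cluster 5. These cells were deep, with medians of 6003 and 5186.5 UMIs.

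*Hmgn2* had another distribution. It was highest in the mitotic cluster 8, at 6599 and 10213 CPM, followed by the S-phase cluster 10, at 6475 and 9432 CPM, which in the WT-labelled library overlapped cluster 8 within counting error. It was lowest in the macrophage-like cluster 3, at 365 and 556 CPM, an 18.1-fold and 18.4-fold span. Granulocyte-like cells kept high levels, with 2668 and 5062 CPM in cluster 4, where *Hmgn1* was scarce. Of the *Hmgn3* UMIs, 81 of 100 and 104 of 113 fell in 3 clusters. Its level was 16.2 and 43.2 CPM in cluster 2, 25.9 and 41.8 CPM in cluster 5 and 24.8 and 25.1 CPM in cluster 7. It had 0 UMIs in clusters 8, 10 and 11 of both libraries, where a count of 0 (taken as at most 3 UMIs) allows levels of up to 3.54 CPM in the deepest of these and 12.5 CPM in the shallowest.

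*Hmgb1* was high in the mitotic clusters and in cluster 5: 3431 and 3571 CPM in cluster 8, 3359 and 3654 CPM in cluster 9, and 3165 and 3393 CPM in cluster 5. Clusters 8 and 9 overlapped within counting error in both libraries. In the S-phase cluster 10 it was at 2517 and 3270 CPM. It was lowest in cluster 4, at 490 and 634 CPM, a span of 7.0-fold and 5.76-fold, the narrowest of the 5 members with a value in every cluster. *Hmgb2* was more concentrated in clusters with cell cycle genes. It reached 7760 and 7227 CPM in cluster 8 and 4743 and 5459 CPM in cluster 9. In the S-phase cluster 10 it was at 4463 and 5447 CPM. The granulocyte-like cluster 12 was close, at 4369 and 4113 CPM, and mitotic genes summed to 3898 and 4119 CPM there. The lowest level of *Hmgb2* was 719 CPM in cluster 2 of the WT-labelled library and 670 CPM in cluster 3 of the KO-labelled library. Its span was 10.8-fold in both.

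*Hmga1* was highest in cluster 5, at 143 and 134 CPM, and was next highest in cluster 7 of the WT-labelled library (122 CPM) and cluster 6 of the KO-labelled library (105 CPM), with overlapping intervals. It was lowest in the granulocyte-like clusters 4 (6.32 and 11.7 CPM, 6 and 4 UMIs) and 11 (8.34 and 19.7 CPM, 6 and 5 UMIs). In the mitotic cluster 8 it stood at only 35.9 and 38.1 CPM. Over the 24 values of 12 clusters in 2 libraries, *Hmgn1* and *Hmga1* had a Pearson correlation of 0.81 and *Hmgn2* and *Hmgb2* one of 0.85, whereas *Hmgn2* and *Hmgn3* had one of -0.66. *Hmgb1* lay between the pairs, with 0.79 against *Hmgn1* and 0.70 against *Hmgb2*. These points share libraries and depth, and the correlations describe them only.

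**Figure D3:**
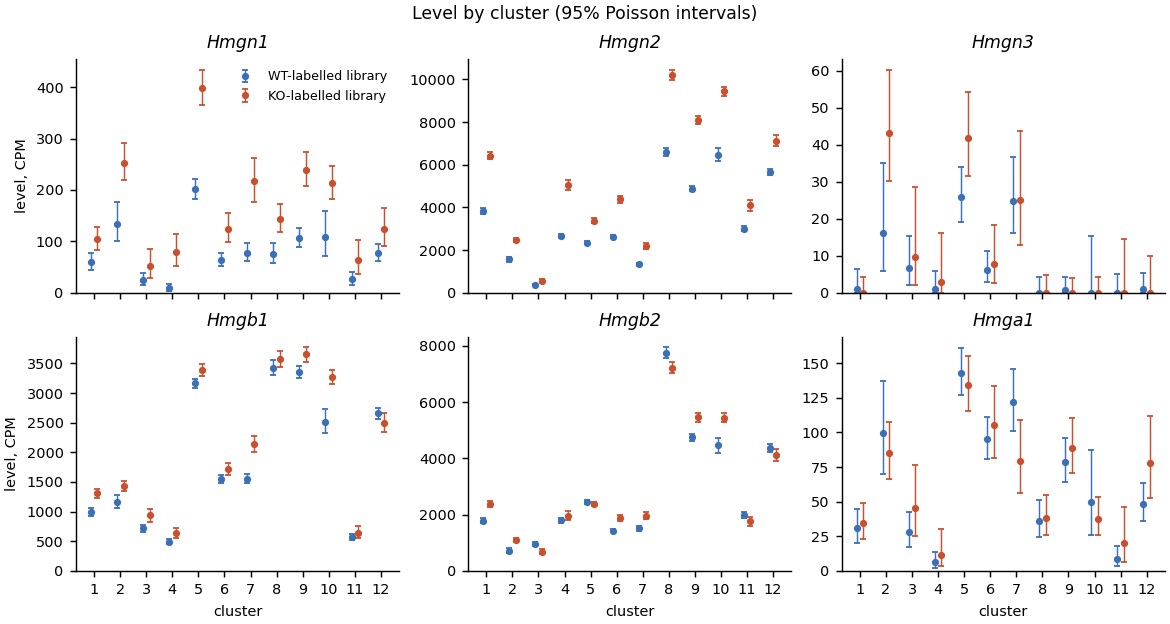
Level of each HMG gene in CPM (vertical axes from 0) in clusters 1 to 12, in the WT-labelled library (blue) and labelled KO (red), with 95% exact Poisson intervals. *Hmgn1* and *Hmga1* peak in cluster 5, *Hmgn2* and *Hmgb2* peak in the mitotic cluster 8, and *Hmgn3* is near 0 outside clusters 2, 3, 5, 6 and 7.

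The relation to the cell cycle was followed without clusters, by sorting thinned cells on their UMIs of 35 mitotic genes into 4 bins (0, 1 to 2, 3 to 5, and 6 or more). In the WT-labelled library, *Hmgb2* was at 1307, 1841, 4275 and 6762 CPM in these bins, and in the KO-labelled library at 1620, 2239, 4198 and 6790 CPM. The top bin exceeded the bottom bin 5.17-fold and 4.19-fold. The libraries differed in the bin without mitotic UMIs, with a log2 ratio of 0.31 (0.22 to 0.40), and coincided in the top bin, with 0.01 (-0.05 to 0.07). *Hmgb1* followed a like course, from 895 to 3704 CPM (4.14-fold) in the WT-labelled library and from 1255 to 3914 CPM (3.12-fold) in the KO-labelled library, and its log2 ratio between libraries was 0.49 (0.38 to 0.59) in the lowest bin and 0.08 (-0.00043 to 0.16) in the top bin.

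*Hmgn1* and *Hmgn2* kept their difference in every bin. *Hmgn2* went from 2148 to 5473 CPM (2.55-fold) in the WT-labelled library and from 3805 to 9128 CPM (2.40-fold) in the KO-labelled library, and its log2 ratio between libraries was 0.82, 0.80, 0.74 and 0.74 from the lowest bin to the top one. *Hmgn1* went from 49.8 to 109 CPM (2.18-fold) and from 142 to 209 CPM (1.47-fold), with log2 ratios between libraries of 1.51, 1.24, 0.97 and 0.94 whose intervals overlap. *Hmga1* differed in direction between the libraries. It was at 48.6 and 63.9 CPM in the lowest and top bins of the WT-labelled library, a log2 ratio of 0.39 (-0.19 to 0.95), and at 57.2 and 33.7 CPM in those of the KO-labelled library, a log2 ratio of -0.77 (-1.502 to -0.08). These values moved with the processing. With 1500 UMIs per cell the log2 ratio was 0.54 (0.05 to 1.02) in the WT-labelled library and -0.37 (-0.92 to 0.18) in the KO-labelled library, and without the 5% highest Scrublet (doublet) scores the latter was -0.70 (-1.45 to 0.01). Cells with 6 or more mitotic UMIs made up 16.5% of thinned cells in the WT-labelled library and 21.3% in the KO-labelled library.

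Sorting on 35 S-phase genes gave a flatter course for *Hmgb2*. From 0 to 6 or more S-phase UMIs, *Hmgb2* differed 2.32-fold in both libraries, *Hmgb1* 2.95-fold and 2.68-fold, *Hmgn1* 2.69-fold and 2.13-fold, *Hmgn2* 2.04-fold and 1.92-fold, and *Hmga1* 2.28-fold and 1.497-fold, the last with an interval that includes no difference. *Hmgn1* reached 288 CPM in the top S-phase bin of the KO-labelled library, against 127 CPM in that of the WT-labelled library. The top S-phase bin held 14.6% and 20.1% of thinned cells.

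Cells were also sorted into 4 equal ranges of the summed UMIs of 13 granulocyte genes, with medians of 2, 6, 102 and 235 UMIs per 1000. These genes were not particular to the granulocyte-like clusters, being at 167482 and 159399 CPM in the mitotic cluster 8 and at 210439 and 178387 CPM in the S-phase cluster 10, against 258468 and 241160 CPM in cluster 4 and 162326 and 172845 CPM in cluster 12. The ranges order cells by these transcripts only. The 3 members scarce in cluster 4 were lower in the highest range than in the lowest. *Hmgn1* was at 121, 70.7, 78.5 and 27.7 CPM over the ranges in the WT-labelled library and at 267, 185, 159 and 116 CPM in the KO-labelled library, so that its lowest range was 4.36-fold and 2.29-fold above its highest. *Hmga1* went from 110 to 17.2 CPM and from 76.7 to 21.6 CPM, a difference of 6.39-fold and 3.55-fold. *Hmgn3* had 19 and 26 UMIs in the lowest range but 2 and 1 in the highest.

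*Hmgn2* and *Hmgb2* ran the other way. *Hmgn2* was at 1711, 2103, 4575 and 4048 CPM in the WT-labelled library and at 2590, 3979, 8421 and 7270 CPM in the KO-labelled library. *Hmgb2* was at 1579, 1922, 3864 and 3299 CPM and at 1754, 2194, 4746 and 4066 CPM. In both, the peak lay in the third range. The third range was also the one with most mitotic and S-phase cells. Cells with 6 or more mitotic UMIs made up 11.1, 11.2, 29.1 and 16.5% of the ranges in the WT-labelled library and 10.01, 15.2, 33.9 and 23.5% in the KO-labelled library. Cells with 6 or more S-phase UMIs made up 19.4 and 27.3% of the third range, against 11.9 and 15.2% of the lowest. The part of cycling cells in these courses was not tested. *Hmgb1* changed least, with log2 ratios of the highest to the lowest range of -0.48 and -0.11. Within the highest range the libraries differed most in *Hmgn1*, with a log2 ratio of 2.07 (1.45 to 2.73).

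**Figure D4:**
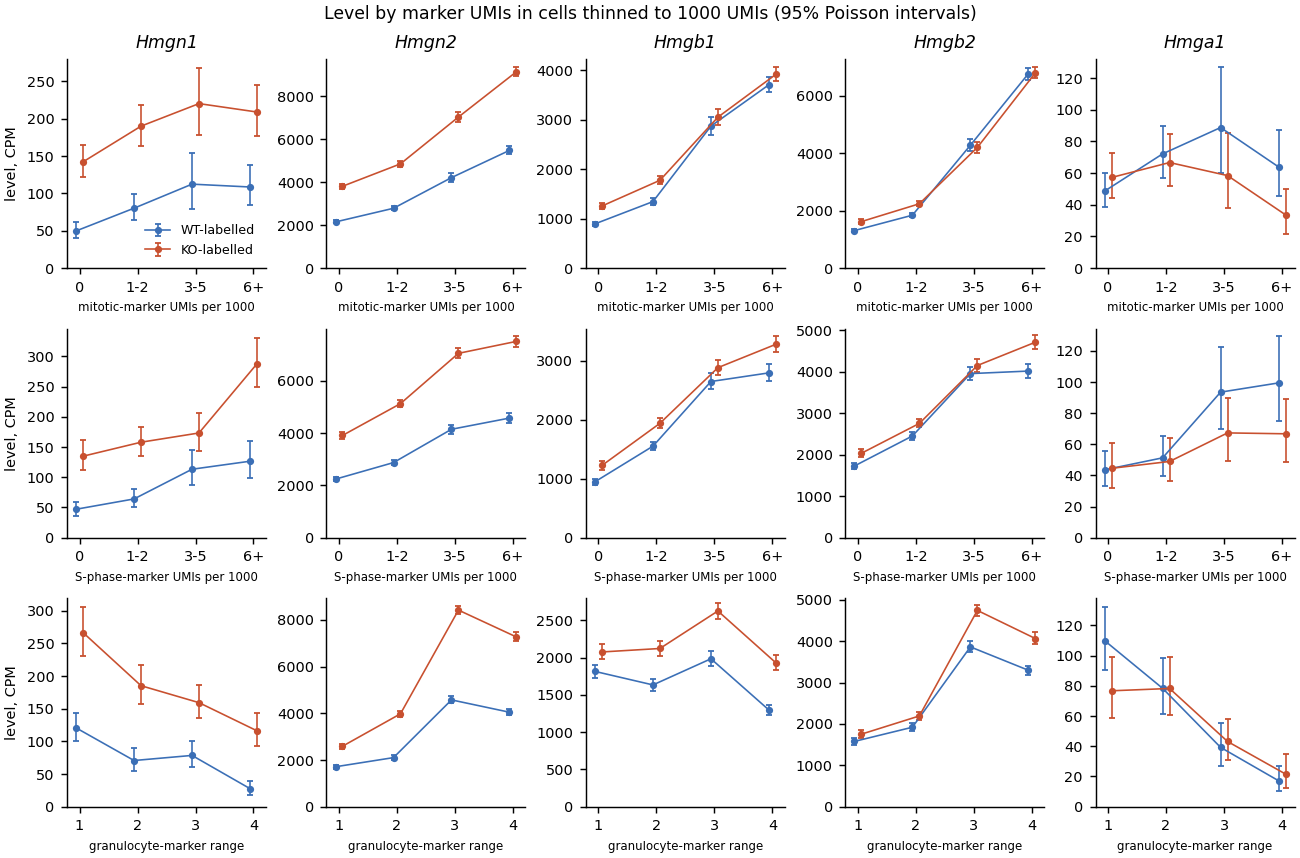
Level in CPM (vertical axes from 0) of 5 HMG genes in cells thinned to 1000 UMIs, sorted by UMIs of mitotic genes (top row), S-phase genes (middle row) and granulocyte genes in 4 ranges (bottom row). Blue is the WT-labelled library, red the KO-labelled library, and bars are 95% exact Poisson intervals. *Hmgb1* and *Hmgb2* climb with mitotic UMIs and meet in the top bin, *Hmgn2* climbs with the libraries apart, and *Hmgn1* and *Hmga1* are lower in range 4 than in range 1 of the granulocyte genes.

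Within single clusters the ratios of *Hmgn1* and *Hmgn2* kept their direction. The clusters are parts of the same 2 libraries and not replicates, and this contrast helped to choose the family. The counts of clusters below therefore describe the cells only. *Hmgn1* was higher in the KO-labelled library in 12 of 12 clusters, with an interval above 0 in 11, and its log2 ratio went from 0.68 in cluster 12 to 3.23 in cluster 4, the latter from 8 and 27 UMIs. *Hmgn2* was higher in 12 of 12 clusters, with every interval above 0 and log2 ratios from 0.34 in cluster 12 to 0.92 in cluster 4. *Hmgn3*, with few UMIs, was higher in the 6 clusters with UMIs in both libraries, with an interval above 0 in 2. *Hmgb1* was higher in 11 of 12 clusters, 9 of them with an interval above 0. *Hmgb2* was mixed, with 6 intervals above 0 and 4 below 0. Its log2 ratio was 0.62 in cluster 2 but -0.51 in the macrophage-like cluster 3. *Hmga1* had 0 intervals above 0 and 1 below 0, in cluster 7, where it was at 122 and 79.3 CPM.

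Because the pools differed in sex-linked transcripts, the ratios were also taken in cells with *Xist* and no Y-linked UMI (1620 WT and 446 KO cells) and in cells with a Y-linked UMI and no *Xist* (94 and 562 cells). *Hmgn1* was at 109 and 219 CPM in the former and at 74.2 and 228 CPM in the latter, with log2 ratios of 1.005 (0.78 to 1.23) and 1.62 (1.07 to 2.22). *Hmgn2* had log2 ratios of 1.04 and 0.56, and *Hmgb1* had 0.44 and 0.13. *Hmgb2* was at 2718 and 4137 CPM in the *Xist* cells, a log2 ratio of 0.61, but at 2803 and 2795 CPM in the Y-linked cells, a ratio of -0.0039 (-0.10 to 0.09). *Hmga1* changed direction. It was at 93.9 and 64.0 CPM in the *Xist* cells, with a log2 ratio of -0.55 (-0.95 to -0.18), and at 61.4 and 97.0 CPM in the Y-linked cells, with 0.66 (0.03 to 1.34). The intervals of *Hmga1* thus lay on opposite sides of 0 in the 2 groups of cells, though the WT value in the Y-linked cells came from only 24 UMIs.

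**Figure D5:**
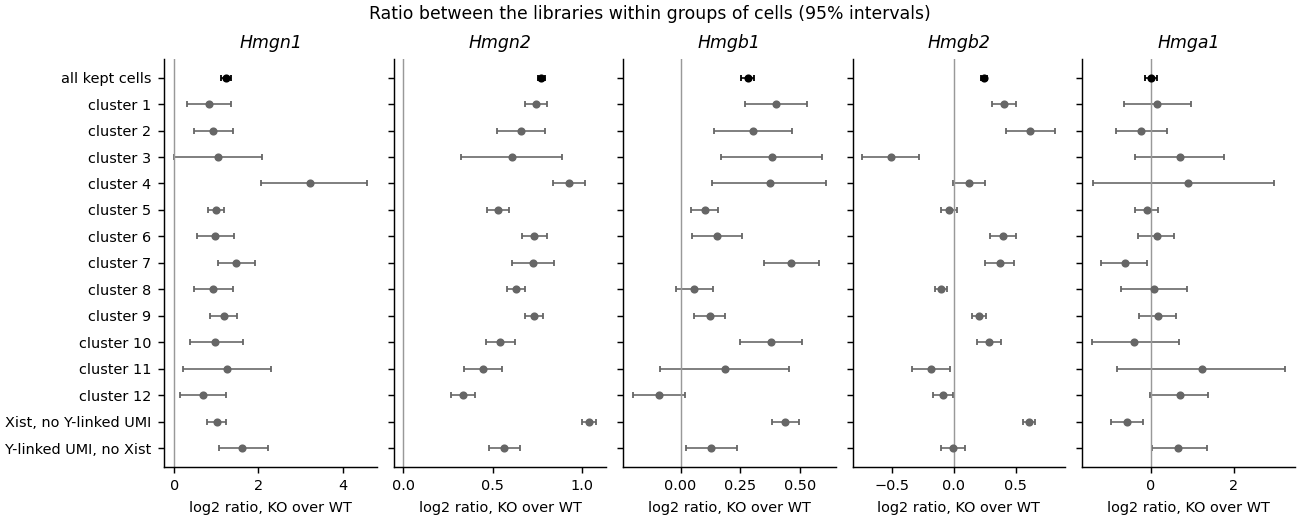
Log2 ratio of CPM, KO-labelled library over WT-labelled library, of 5 HMG genes in all kept cells (black), in each cluster and in cells with *Xist* or Y-linked UMIs only (grey), with 95% intervals for counting error. Horizontal scales differ between panels. *Hmgn1* and *Hmgn2* lie right of 0 throughout, whereas *Hmgb2* and *Hmga1* lie on both sides.

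The study was concerned with variability between cells, so the Fano factor, the variance over the mean, was computed on thinned counts, where Poisson sampling alone gives 1. For *Hmgn1* it was 1.254 in the WT-labelled library and 1.91 in the KO-labelled library, for *Hmgn2* 2.72 and 3.76, for *Hmgb1* 2.15 and 2.08, for *Hmgb2* 3.45 and 3.54, for *Hmga1* 1.05 and 1.01, and for *Hmgn3* 1.49 and 1.35. The medians over robust genes were 1.16 and 1.27. The Fano factor rises with the mean level, and genes were not matched on level here. By the coefficient of variation, which falls with the mean, *Hmgn2* (0.94 and 0.81), *Hmgb1* (1.14 and 0.97) and *Hmgb2* (1.15 and 1.04) had low values, and *Hmgn1* (4.12 and 3.25) and *Hmga1* (4.13 and 4.28) high ones, so no order of variability across genes is read. The log2 ratio of the *Hmgn1* Fano factor, 0.61, rested on few cells and was 0.14 once the 10 cells with most *Hmgn1* UMIs were left out of each library.

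The last 400 bases of the members' transcripts were compared with all GENCODE transcripts at 95% identity over at least 90 bases, because reads from near-identical genes can be split or discarded. *Hmgb1* matched 75 other genes, all annotated as pseudogenes, *Hmgb2* 5 and *Hmgn1* 4, likewise pseudogenes, and *Hmgn3* 0. None of these was in the count table. *Hmgn2* matched 12 genes, of which the table held *Gm10282*, identical over 402 aligned bases, with 155 and 222 CPM and a log2 ratio of 0.51 (0.42 to 0.61). *Hmga1* shared 102 bases with *AI413582*, which overlaps its 3′ end on the other strand. Counts of *Hmga1* and *Hmgn2* are uncertain to the extent that reads were divided among such genes.

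The ratios of the robust genes around each member were also taken, and a cause shared by neighbours was not tested. *Hmgn1* had 10 robust neighbours within 5 Mb, with a median log2 ratio of -0.14 and a range of -1.03 to 0.37. Of these, 0 were higher and 2 lower by 1.5-fold or more, where 3.54% and 3.43% of all robust genes were. The nearest on either side were *Psmg1*, which encodes a proteasome assembly chaperone, 137 kb towards lower coordinates with a log2 ratio of 0.08, and the integrin gene *Itgb2l*, 316 kb towards higher coordinates with -1.03. The splicing factor gene *Son* stood at -0.71. The median over 77 other robust genes of chromosome 16 was 0.08. *Hmgn2* had 40 neighbours with a median of 0.05, *Hmgb1* 16 with 0.03, *Hmgb2* 4 with 0.08, *Hmga1* 44 with 0.09 and *Hmgn3* 5 with -0.14.

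The genes whose pattern over the 24 cluster values was most like that of each member were named by their Pearson correlation. For *Hmgn1* these were *Srsf6* (0.92), *Trim28* (0.92), *Set* (0.91), *Dynll2* (0.91) and *Thoc7* (0.91). For *Hmgb1* they were *Cks1b* (0.98), *Tuba1b* (0.97), *Ptma* (0.97), *Tagln2* (0.97) and *Cks1brt* (0.97), and for *Hmgb2* they were *Tuba4a* (0.94), *Ccdc34* (0.92), *Asf1b* (0.91), *Sap18* (0.90) and *Gm10282* (0.90). *Hmga1* was most like *Eif3g* (0.96), *Npm1* (0.96), *Rps2* (0.95), *Snrpf* (0.94) and *Mrps28* (0.94), which serve translation, splicing and ribosome assembly. *Hmgn2* was most like its near-identical copy *Gm10282* (0.97), then *Cd81* (0.96), *Tuba4a* (0.94) and *1700020L24Rik* (0.92), and *Hmgn3* was most like *Ly6e* (0.93), *Bloc1s2* (0.92), *Irf8* (0.91), *Psmb8* (0.91) and *Ly86* (0.90).

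Related genes were taken from lists. Of 24 other HMG proteins, 6 were robust, and 0 of these were past 1.5-fold in either direction. Over all robust genes, 3.54% were higher by that much and 3.43% lower. Lists as short as this one and those below are too small to be read against these shares. The median log2 ratio of the 6 robust genes was 0.21 against 0.07 over all robust genes. The rest of the list lies outside this count, and larger differences between the libraries occurred among those genes. *Hmgb3* was at 121 and 165 CPM (log2 ratio 0.45), *Hmgn5*, a further nucleosome-binding gene, was at 62.5 and 85.2 CPM (0.45), and *Ssrp1*, the HMG-box subunit of the histone chaperone FACT, was at 128 and 135 CPM (0.08). *Smarce1*, an HMG-box subunit of SWI/SNF remodelling complexes, was at 82.3 and 94.9 CPM (0.21). *Hmg20b*, a subunit of a histone deacetylase complex, was lower, at 61.9 and 43.8 CPM (-0.50). *Hmga2*, the other AT-hook gene, had 32 and 5 UMIs and was not robust.

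Linker histones compete with HMGN proteins for nucleosomes, and 2 of 7 were robust with 0 past 1.5-fold. These are too few to be read against the shares over all robust genes. *H1f0* was at 360 and 446 CPM (log2 ratio 0.31) and *Hist1h1c* at 139 and 129 CPM (-0.11). The other 5 were not robust. *Hist1h1e* was at 85.6 and 22.7 CPM (-1.91) and *Hist1h1b* at 66.9 and 28.7 CPM (-1.22), *Hist1h1a* and *Hist1h1d* had log2 ratios of -1.29 and -0.72, and *H1fx* had one of 1.90. Transcripts of replication-dependent histones largely lack the poly(A) tail by which the libraries were primed. Of 16 genes of the SET complex, in which *Hmgb2* takes part, and of acidic histone chaperones, 14 were robust. The nucleoplasmin-family *Npm3* was higher by more than 1.5-fold, at 164 and 253 CPM (0.62), and the nucleosome assembly gene *Nap1l4* lower, at 103 and 68.7 CPM (-0.59), with a list median of 0.24. *Ptma*, at 7226 and 10266 CPM (0.51), *Npm1*, at 602 and 768 CPM (0.35), and *Anp32b*, at 513 and 560 CPM (0.13), had the highest levels in this list. Of 8 genes for receptors and binding partners of released HMGB1, only *Cd24a* was robust, at 537 and 453 CPM (-0.24). *Cxcr4* was at 18.2 and 24.5 CPM and *Tlr2* at 17.4 and 9.72 CPM.

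In the KO-labelled library, 221 thinned cells held a UMI of *Kat2a* and 3130 did not. *Hmga1* was at 113 CPM (73.2 to 167) in the former and at 51.1 CPM (43.5 to 59.7) in the latter, a log2 ratio of 1.15 (0.48 to 1.76). *Hmgb2* was lower in the cells with a *Kat2a* UMI, at 2584 against 3295 CPM (-0.35, -0.47 to -0.23), as was *Hmgn2*, at 5136 against 5715 CPM (-0.15, -0.24 to -0.07). *Hmgn1*, at 222 and 178 CPM (0.31, -0.14 to 0.74), and *Hmgb1*, at 2176 and 2218 CPM (-0.03, -0.16 to 0.11), had intervals that include 0. A single UMI of a scarce transcript does not define a class of cells, and these values describe the cells in which it was seen.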

How the data were processed

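The authors sorted live YFP-positive leukemia cells, made 10x Genomics 3′ libraries and deposited 1 matrix of UMI counts for both, which was not normalized. The submitters' processing notes name Cell Ranger 1.3.1 and mm10. The notes and the study's methods do not name the same Cell Ranger version. Which barcode ending stands for which genotype follows the study's published code, since the labels do not say. The HMG genes, gene lists and comparisons were chosen with earlier results of these data known.

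Cells with 500 or more genes and, for the robust set, genes detected in 10% or more of kept cells were used, as in the study. Counts per library or group of cells were summed and scaled to CPM. Sums carry exact Poisson intervals, shares exact Clopper-Pearson intervals, and ratios exact conditional binomial intervals, all at 95%. There was 1 library for each genotype, hence no test of genotype and no p-value. Clusters came from k-means (12 clusters, 10 starts) on 20 principal components of ln(1 + counts per 10000) over 784 variable genes, with the HMG members left out. A cluster was named "like" a class where at least 3 markers of that class were raised 1.5-fold and at least 2 were among its 10 leading genes. Scrublet marked 6 cells (0.0810%), too few to be taken as working, so doublets were kept and the top 5% of scores were left out as an alternative. Named genes were the members, related-list genes past 1.5-fold or among the 3 highest of a list, the 5 genes most like each member, and neighbours. A few genes that this rule or the lists would name are not reported here. Other related genes were named for their kinship after their values were seen. Positions were matched by gene identifier to GENCODE M21 (2736 of 2737 robust genes). Promoters of 5 of 6 members were found in RefSeq. Ratios of summed counts and their intervals, thinning and the Fano factor were tested on simulated counts. Clustering, marker bins and the sequence steps were not. Software was Python 3.11.15, NumPy 2.4.6, SciPy 1.17.1, scikit-learn 1.9.0, scanpy 1.11.5 and blastn 2.17.0.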

Additional observations from a re-analysis of the deposited data

Results flagged for a closer look

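The cells left out for having fewer than 500 detected genes were not part of the comparisons, and they numbered 203 in the WT-labelled library and 695 in the KO-labelled library, with 223109 and 665160 UMIs. In these cells *Hmgn1*, *Hmgn2*, *Hmgb1* and *Hmgb2* were higher in the KO-labelled library than in the WT-labelled one, with the interval of the ratio above 0. *Hmga1* had 4 and 19 UMIs and a log2 ratio of 0.67 (-0.92 to 2.69), and *Hmgn3* had 0 and 2 UMIs. The share over all genes was not taken in these cells, and this contrast helped to choose the family. Nothing is therefore read from the number of members that were higher. *Hmgn1* was at 26.9 CPM (9.87 to 58.5, 6 UMIs) and 64.6 CPM (46.8 to 87.1, 43 UMIs). *Hmgn2* was at 1649 and 3843 CPM, *Hmgb1* at 556 and 985 CPM, and *Hmgb2* at 1721 and 2429 CPM. Their log2 ratios of 1.27, 1.22, 0.83 and 0.50 had the same direction as in the kept cells. What these small cells are was not tested.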

How the results depend on the processing

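No paired analysis was possible because each genotype had a single library, and for the same reason no replicate could be left out. The log2 ratio of *Hmgn1* between the libraries was 1.40 in cells matched on total UMIs, 1.11 without the granulocyte-like clusters, 1.005 in cells with *Xist*, 1.62 in cells with a Y-linked UMI and 1.06 with clusters reweighted to equal shares. For *Hmgn2* it was 0.75 with every deposited cell, 0.60 in cells with 1000 or more genes, 0.89 after thinning, 0.94 in matched cells, 0.86 without the granulocyte-like clusters, 1.04 in *Xist* cells, 0.56 in Y-linked cells, 0.70 with the robust median set to 0 and 0.64 after reweighting. For *Hmgb1* it was 0.23 with every cell, 0.41 after thinning, 0.57 in matched cells, 0.23 without the granulocyte-like clusters, 0.44 in *Xist* cells, 0.13 in Y-linked cells, 0.21 with the median at 0 and 0.20 after reweighting. For *Hmgb2* it was 0.16 in cells with 1000 or more genes, 0.31 after thinning, 0.41 in matched cells, 0.29 without the granulocyte-like clusters, 0.61 in *Xist* cells, 0.17 with the median at 0 and 0.11 after reweighting, and it turned to -0.0039 in Y-linked cells. For *Hmga1* it was 0.20 in cells with 1000 or more genes, -0.16 after thinning, 0.29 in matched cells, -0.17 without the granulocyte-like clusters, -0.55 in *Xist* cells and 0.66 in Y-linked cells, so that its direction depended on the cells taken. *Hmgn3* moved less than its counting interval under every alternative with a value. In Y-linked cells it had 0 UMIs in the WT-labelled library and gave none. Of 65 such values over all members, 29 moved by less than the counting interval, and leaving out high Scrublet scores or the 10 highest cells was among these for each member. The cause of these shifts was not tested.

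The number of genes higher by 1.5-fold or more, 97, was 173 with a UMI in 5% of cells as the limit, 50 with 20%, 1522 with any UMI, 153 after thinning and 61 with the median at 0, which takes away 0.07 from each log2 ratio. The number lower, 94, was 228, 35, 2155, 129 and 135 in the same order. With 1500 UMIs per cell, the log2 ratio of the top to the bottom mitotic bin was 1.17 and 1.15 for *Hmgn2* in WT and KO order and 2.24 for *Hmgb2* in WT. That over S-phase bins was 0.86 and 0.85 for *Hmgn2* and 1.10 and 1.05 for *Hmgb2*, and that over granulocyte ranges in KO was -1.66 for *Hmgn1*, 1.32 for *Hmgn2*, -0.25 for *Hmgb1* and 1.05 for *Hmgb2*. The log2 ratio of Fano factors was -0.42 for *Hmgn3*, turned to -0.00079 for *Hmgb2* and to 0.020 for *Hmga1* at that depth. Without the 10 highest cells it was 0.14 for *Hmgn1*, -0.0041 for *Hmgn3*, 0.0020 for *Hmgb2* and -0.0057 for *Hmga1*. With 8 clusters the log2 span over clusters was 3.48 for *Hmgn1* in WT, 3.55 and 3.34 for *Hmgn2* and 3.01 and 2.67 for *Hmgb2*, and with 16 clusters 3.07 and 3.01 for *Hmgb1*. The other 13 such spans stayed within the counting interval. Depth limited *Hmgn3*, *Hmga1* and the granulocyte-like clusters for *Hmgn1* most.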
